A study of Rana pirica with 14 samples.

Results

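Tail tissue of Rana pirica tadpoles that had lived with a dragonfly larva for 4 days and then for 4 days without it (-Drago, 3 arrays) was compared with tail tissue of tadpoles that never met a predator (Cont, 2 arrays), to ask what was still different 4 days after the predator had gone. These are 5 of the 14 arrays of the series, taken by their sample titles, and the comparison covers 15491 of 15611 probe sets, all but the 120 of control transcripts. The other 9 arrays come from tadpoles kept for 8 days with the dragonfly larva (Drago), for 4 days with larval salamanders and 4 days without (-Salam), or for 8 days with larval salamanders (Salam), 3 arrays each. They entered the comparison only through the estimate of the spread between arrays. Tadpoles were raised from eggs taken from a pond, were 10 days old at the start, and the dragonfly larva was held in a cage. Tails were taken on day 8 from 10 tadpoles per aquarium and 4 aquaria per treatment, and these 40 were put together. According to the methods, the tissue of a group went into a single tube before RNA extraction, so the arrays of a group are described as repeats of 1 pool. The labels nevertheless call them biological replicates. With 1 pool per group, an effect of treatment and a difference between pools cannot be told apart, and the p-values cover no more than array-to-array spread. A further Cont array, which the paper calls control 1, was left out by the authors because its hybridization failed. The 2 Cont arrays used here are numbered 1 and 2 by their sample titles. The -Drago folds that the paper prints for its selected genes are those obtained from these 2 arrays, for example -4.36 for rhno1. Cont array 1 below is therefore not the array that was left out.

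Many anuran tadpoles change shape when they sense a predator, and the tail is the part that changes most visibly. A deeper fin, altered muscle and altered skin can all be part of such a response. When the predator disappears the shape can return toward that of unexposed animals, which makes the tail a standard example of reversible phenotypic plasticity. The tail of a tadpole before metamorphosis is built of striped muscle, notochord, spinal cord, blood vessels and a layered epidermis.

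No probe set differed between -Drago and Cont after adjustment for multiple testing. By limma with Benjamini-Hochberg adjustment, 0 of 15491 probe sets (0%) passed an adjusted p under 0.05, and the smallest adjusted p was 0.953. At an unadjusted p under 0.05, limma took 359 probe sets with higher values in -Drago (2.32%) and 406 with lower values (2.62%), 765 in all, where 775 would fall under that limit if no probe set differed. On the log2 scale, differences had a median standard error of 0.86, within a range of 0.49 to 1.65. For a single probe set, a two-sided exact permutation test on the ranks of 3 arrays against 2 cannot give a p below 0.2. All gene results that follow are therefore values of single arrays and differences between means, given with their errors, and none of them passed the test.

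Values are on a log2 scale on which 0 is the middle of the 14 arrays for that probe set, and the signal level itself has been removed. A difference is the -Drago mean minus the Cont mean, so a positive value means higher in -Drago, and a fold is 2 to the power of that difference, written with a minus sign for lower. The probes were designed for Xenopus laevis. The suffixes .L and .S mark the long and short chromosome copies that this tetraploid frog carries, and which Rana pirica transcript a probe set reads was not tested. In a whole tail, fewer cells of a type and less RNA per cell cannot be told apart.

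A difference of over 5 fold was found for 108 probe sets with higher values in -Drago (0.697%) and 152 with lower values (0.981%), and 7 and 6 of them passed 10 fold. Of these 260 probe sets, 245 had no overlap between the arrays of the groups, which a selection by the difference between the same arrays favours. Over all probe sets, the 3 -Drago arrays all lay above both Cont arrays in 1546 (9.98%) and all below in 1630 (10.5%). Both directions together made 20.5%, where 20% would be separated if the arrays of the groups did not differ. The count over 5 fold is by construction higher with fewer arrays, so leaving an array out does not show how far the 260 depend on it. Without -Drago array 1, 2 or 3 there were 459, 436 and 454 probe sets over 5 fold, without Cont array 1 there were 817 and without Cont array 2 there were 950, with limma calling 0 each time. Arrays of the same group did not deviate together: over the 15491 probe sets the correlation between any 2 of the 5 arrays lay between -0.0177 and 0.0102, and that between the Cont arrays was -0.008. These coefficients describe centred values and carry no test.

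**Figure D1:**
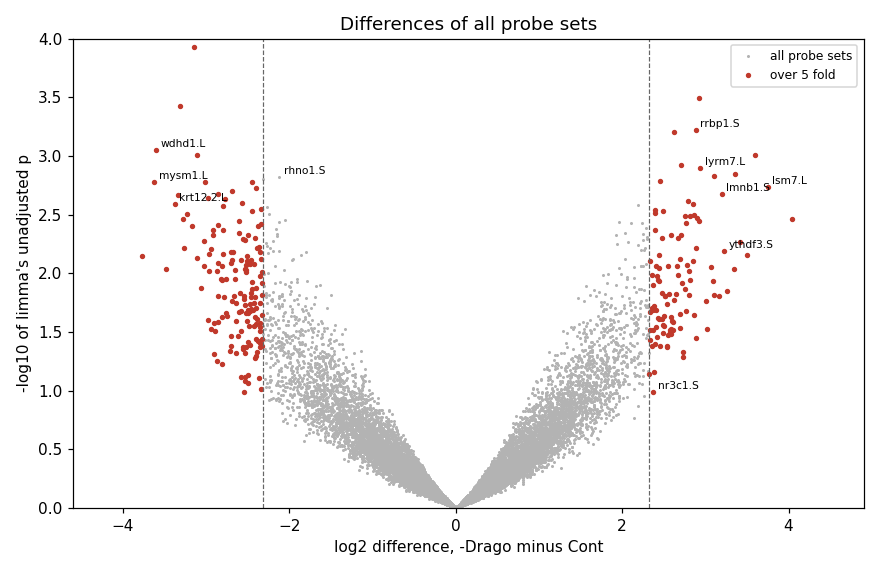
Each point is 1 of 15491 probe sets, with the log2 difference of -Drago minus Cont on the horizontal axis and -log10 of limma's unadjusted p on the vertical axis. Red points passed 5 fold in either direction (108 higher, 152 lower, outside the dashed lines), and 0 probe sets passed the adjusted test.

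Among the 15 genes with the smallest p and higher values in -Drago, rrbp1.S led. It encodes a ribosome-binding protein of the endoplasmic reticulum and had values of 0.36, -0.04 and 0.30 in -Drago, against -3.17 and -2.19 in Cont, a difference of 2.88 (SE 0.66). All 3 -Drago arrays were near the middle of the series and both Cont arrays were far below it. slc33a1.L, which carries acetyl-CoA into the endoplasmic reticulum, had 0.36, -0.03 and -1.05 in -Drago, against -2.97 and -2.31 in Cont (difference 2.40, SE 0.67). For emc8.S, a subunit of the complex that inserts membrane proteins there, the values were 0.46, 0.54 and -0.17 in -Drago, against -2.25 and -1.68 in Cont (difference 2.24, SE 0.67). In each of these genes the arrays of the groups did not overlap, and the Cont arrays were the lower ones. In all 30 genes with the smallest p, higher or lower, ranking by p on the same arrays favours such separation. The other copy of the first, rrbp1.L, differed by -0.02 (SE 1.06).

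lsm7.L, a Sm-like protein of the U6 splicing particle and of mRNA decay, had the largest difference of a probe set with 1 gene symbol. Its values were 2.13, 2.08 and 1.44 in -Drago, against -2.32 and -1.42 in Cont, a difference of 3.75 (SE 0.99, 13.5 fold). Here the -Drago arrays were high and the Cont arrays low, on either side of the middle. lmnb1.S, lamin B1 of the nuclear lamina, had 0.31, 0.13 and 1.26 in -Drago, against -3.43 and -1.82 in Cont (difference 3.19, SE 0.86). ythdf3.S, a reader of methylated adenosine in mRNA, had 1.95, 1.28 and -1.05 in -Drago, against -1.83 and -3.16 in Cont (difference 3.22, SE 1.01). The other ythdf3.S probe sets pointed the other way, at -0.83 (SE 1.19) and -1.38 (SE 1.14). The lowest -Drago array of the first one came within 1 log2 unit of the higher Cont array, while lmnb1.S kept a wider gap. lmnb1.L differed by 1.09 (SE 0.91), and a second lsm7.L probe set by 0.54 (SE 1.08).

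hspa8.L and prdx1.L were also among the 15. hspa8.L, a constitutive chaperone of the heat shock protein family, had -0.01, 0.30 and 0.43 in -Drago, against -1.53 and -2.98 in Cont (difference 2.5, SE 0.70). prdx1.L, a peroxiredoxin that removes hydrogen peroxide, had 0.74, 0.33 and 0.10 in -Drago, against -2.0 and -2.95 in Cont (difference 2.86, SE 0.81, 7.27 fold). In both genes the -Drago arrays lay close together and the Cont arrays were the lowest of the 14. The other prdx1 probe set, prdx1.S, had a difference of -0.49 (SE 0.57), so the pair did not point the same way.

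col9a1.L, a chain of the cartilage collagen IX, had 2.56, 2.16 and -0.17 in -Drago, against -1.49 and -1.11 in Cont (difference 2.82, SE 0.80). The third -Drago array was well below the other two but still above Cont. dll1.L, a Notch ligand, had 0.54, 0.71 and -0.12 in -Drago, against -1.42 and -2.41 in Cont (difference 2.29, SE 0.67). lyrm7.L, an assembly factor of respiratory complex III, had 1.14, 1.93 and 0.83 in -Drago, against -1.53 and -1.74 in Cont (difference 2.94, SE 0.74). For both, every -Drago array was more than 1 log2 unit above either Cont array.

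pacsin3.S, a protein that bends membranes during endocytosis, shows how far 1 array could carry a gene. Its values were 0.23, 0.37 and 0.09 in -Drago, against -3.91 and -1.12 in Cont, a difference of 2.75 (SE 0.78) that was 1.35 without Cont array 1 and 4.14 without Cont array 2. The other genes of the 15 were fut11.S, a fucosyltransferase (2.85), ttc30a.S of intraflagellar transport (2.71), tmem30a.S, a subunit of lipid flippases (2.58), and trmo.L, a tRNA methyltransferase (2.24), with SE from 0.65 to 0.81. Each of the 15 had an adjusted p = 0.953 by limma.

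Among the 15 genes with lower values in -Drago, wdhd1.L had the smallest p. wdhd1.L, which couples helicase and polymerase at the replication fork, had -1.59, -0.73 and 0.13 in -Drago, against 2.69 and 3.07 in Cont, a difference of -3.61 (SE 0.87) or -12.2 fold. rhno1.S, a partner of the checkpoint clamp that senses damaged DNA, had -0.76, -0.57 and -0.73 in -Drago, against 1.92 and 0.96 in Cont (difference -2.12, SE 0.54). The mitotic checkpoint kinase ttk.S had -1.22, -0.75 and -1.04 in -Drago, against 1.22 and 1.45 in Cont (difference -2.34, SE 0.65). In all of these the -Drago arrays were grouped below Cont without overlap. The ranking by p favours such separation in each of them. rhno1.S is also one of the 10 probe sets that the study's own selection test took, so it was selected on these arrays a further time.

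mysm1.L, a deubiquitinase of histone H2A, had -0.05, -1.63 and -0.83 in -Drago, against 3.34 and 2.23 in Cont (difference -3.63, SE 0.94). exosc1.L, a subunit of the RNA exosome, had -0.99, -1.24 and -1.17 in -Drago, against 0.77 and 1.87 in Cont (difference -2.45, SE 0.64). thg1l.L, which adds a guanosine to histidine tRNA, had -0.05, -0.23 and 0.03 in -Drago, against 2.33 and 2.63 in Cont (difference -2.57, SE 0.70). The exosc1.L values of -Drago lay close to each other, and those of thg1l.L lay at the middle of the series.

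krt12.2.L, a keratin of the kind found in epithelia, had -4.12, -2.12 and -3.59 in -Drago, against 0.21 and -0.02 in Cont (difference -3.38, SE 0.93, -10.4 fold). These were 3 of the 4 lowest values of the 14 arrays, the other low one being a -Salam array at -3.67. A second krt12.2.L probe set pointed the other way, with 1.64, -0.07 and 0.12 in -Drago, against 0.49 and -1.72 in Cont (difference 1.18, SE 1.21), and krt12.2.S differed by -0.22 (SE 1.30), so the low values were those of 1 probe set of 3. fbn3.L, a fibrillin of elastic microfibrils, had -0.84, -0.41 and -1.75 in -Drago, against 1.65 and 1.90 in Cont (difference -2.78, SE 0.75). rarres1.L, a retinoic acid responsive membrane protein, had -0.64, -0.90 and -2.23 in -Drago, against 1.73 and 1.72 in Cont (difference -2.98, SE 0.81). Both Cont arrays of rarres1.L were nearly equal and all 3 -Drago arrays were below the other 11, while rarres1.S differed by -1.10 (SE 0.70). A second fbn3.L probe set differed by 0.04 (SE 0.60).

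uqcrq.S, a subunit of respiratory complex III, had -1.99, -0.92 and -1.98 in -Drago, against 1.25 and 0.03 in Cont (difference -2.27, SE 0.63). Its direction was opposite to that of lyrm7.L, which helps to build the same complex. ostf1.L had -1.85, -2.11 and -3.74 in -Drago, against 1.08 and 0.34 in Cont (difference -3.28, SE 0.94). The remaining genes of the 15 were the calpain protease capn9.L (-3.22), XB5845204.L (-2.69), tmem184b.L (-2.32) and the glucocorticoid-induced glcci1.L (-2.06), with SE from 0.59 to 0.91 and, like the whole group, an adjusted p = 0.953.

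**Figure D2:**
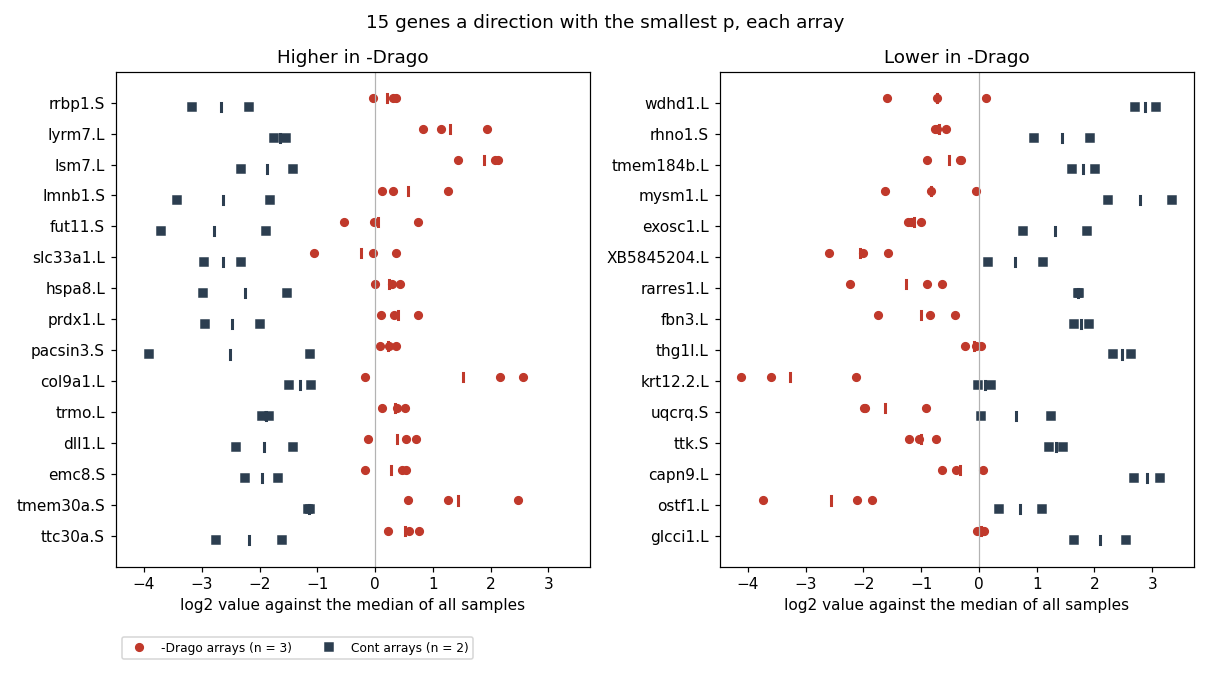
Points are the single arrays of -Drago (red circles, n = 3) and Cont (dark squares, n = 2) for the 15 genes with the smallest p in each direction, with ticks at the group means and log2 values against the median of all samples on the horizontal axis. The arrays of the groups do not overlap in any of the 30 genes, which were chosen by the p of this same comparison.

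In all 30 genes the direction of the difference was kept when any 1 array was left out, with a smallest size of 1.35 on the log2 scale. Since these genes were ranked by the p of this same comparison, that describes the ranking and is no support for it. In 13 of the 30 the Cont arrays lay beyond all 12 other arrays, and in 3 the -Drago arrays lay beyond all 11 others. Over all 15491 probe sets the shares were 2.16% and 0.516%, and over the 260 past 5 fold 49 and 10 probe sets. A pair of arrays reaches an end more easily than 3 arrays do, so the counts of Cont and -Drago are not set against each other. For wdhd1.L the difference from Cont was -3.61 in -Drago, -3.25 in Drago, -2.67 in -Salam and -2.58 in Salam, and for hspa8.L 2.5, 2.14, 2.53 and 2.22 in the same order of groups. These differences share the same Cont arrays, so they are not independent of each other. For uqcrq.S, in which -Drago stood apart, they were -2.27 in -Drago, -1.0 in Drago, 0.04 in -Salam and 0.05 in Salam. For cdk1.S they were -2.51 in -Drago, -0.95 in Drago, -0.48 in -Salam and -0.78 in Salam.

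**Figure D3:**
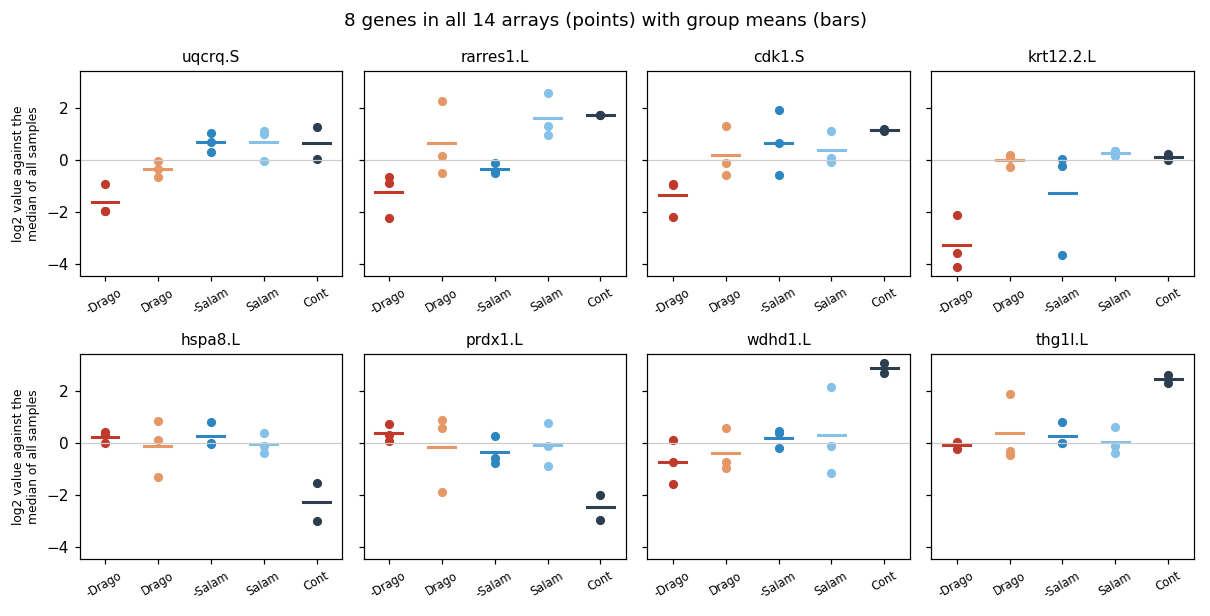
Points are single arrays and bars are group means of log2 values against the median of all samples, for 8 genes in -Drago, Drago, -Salam, Salam (n = 3 each) and Cont (n = 2). In uqcrq.S, rarres1.L and cdk1.S the 3 -Drago arrays are below all others, in krt12.2.L 1 -Salam array is as low, and in hspa8.L, prdx1.L, wdhd1.L and thg1l.L both Cont arrays are at one end of the 14, narrowly so in prdx1.L, with -2.0 in Cont array 1 next to -1.89 in a Drago array.

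Gene lists for the tissues of the tail and for its main processes were centred near 0, as were all probe sets, whose median difference was -0.00419 and whose median size of difference was 0.56. With 26 lists of 16 to 234 probe sets, list medians lay between -0.23 and 0.16, and limma called 0 members of each. Separated arrays are counted first for values above Cont and then for values below it, with the share of both together. That share was 20.5% over all probe sets and ran from 5.36% to 39.5% over the lists, and a list near 20.5% did not stand out from the background.

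In the skeletal muscle list, 6 of 59 probe sets had all -Drago arrays above Cont and 4 all below (16.9%), with a median of 0.08. Its member past 5 fold was myog.S, the differentiation factor myogenin, with 1.49, 3.02 and 1.75 in -Drago, against -0.67 and -0.55 in Cont (difference 2.69, SE 1.11). The -Drago arrays were high and the Cont arrays near each other, and the other myogenin probe set, myog.L, differed by 0.92 (SE 0.90). In the epidermis list 9 and 9 of 81 were separated (22.2%, median -0.03), and besides the keratin krt12.2.L the desmosome protein pkp3.L, a plakophilin, was past 5 fold. pkp3.L had -1.76, -0.46 and -0.69 in -Drago, against 1.62 and 1.48 in Cont (difference -2.52, SE 0.98). Cadherins, catenins and integrins had 8 and 5 of 59 separated (22%, median 0.02), with 0 past 5 fold.

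The basement membrane list had 4 and 1 of 16 probe sets separated (31.2%), with a median of 0.15, and interstitial matrix and proteases 5 and 8 of 75 (17.3%), with a median of 0.16. mmp3.L, the matrix protease stromelysin, had -0.16, 0.96 and 1.43 in -Drago, against -2.66 and -0.53 in Cont (difference 2.34, SE 1.02). Its lowest -Drago array lay close to the higher Cont array, and the difference was between 1.27 and 3.40 when either Cont array was left out. Notochord and cartilage, which hold col9a1.L, had 2 and 1 of 19 separated (15.8%, median 0.13). The neural list had 1 and 4 of 42 (11.9%, median 0.09), and its member ncam1.S, a neural cell adhesion molecule, had 0.06, 1.29 and -0.27 in -Drago, against -3.58 and -0.87 in Cont (difference 2.58, SE 1.02). That difference was 1.23 without Cont array 1 and 3.94 without Cont array 2. The second probe set of that gene, ncam1.L, differed by 1.26 (SE 1.12). The neural list also had 1 probe set lower by more than 5 fold, at -2.58. Erythrocyte genes had 1 and 2 of 22 separated (13.6%, median -0.11), and water and ion transport 14 and 12 of 81 (32.1%, median -0.08).

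Among the stress lists, oxidative and hormonal stress had 7 and 9 of 67 separated (23.9%), with a median of 0.07, and 3 members past 5 fold, all higher. Besides prdx1.L these were probe sets of both copies of nr3c1, the glucocorticoid receptor through which vertebrate stress hormones act. nr3c1.L had -0.11, 0.42 and 0.11 in -Drago, against -2.90 and -1.48 in Cont (difference 2.33, SE 0.97). nr3c1.S had 0.80, -0.11 and 3.75 in -Drago, against -0.73 and -1.06 in Cont (difference 2.37, SE 1.36), and without the third -Drago array it was 1.24. Another nr3c1.S probe set gave 0.36, -0.26 and 0.52 in -Drago, against 0.23 and 0.02 in Cont (difference 0.08, SE 0.53), where the groups overlapped. Heat shock proteins and chaperones had 11 and 10 of 96 separated (21.9%, median 0.02). In that list hspa8.L was higher and cct7.S, a subunit of the cytosolic chaperonin, lower, with -1.68, -1.48 and 0.21 in -Drago, against 1.89 and 1.89 in Cont (difference -2.87, SE 1.38). The hypoxia and vessels list had 6 and 3 of 43 (20.9%, median -0.09) and apoptosis 2 and 1 of 30 (10%, median 0.10), each with 0 members past 5 fold.

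Ubiquitin and proteasome genes had 10 and 20 of 145 separated (20.7%), with a median of -0.02, and 5 past 5 fold, all lower. psmd14.L, the deubiquitinase of the proteasome lid, had -2.87, -3.19 and -2.05 in -Drago, against 0.35 and 0.28 in Cont (difference -3.02, SE 0.92). All -Drago arrays were at least 2 log2 units below both Cont arrays, while psmd14.S differed by 0.96 (SE 0.86) the other way. cops8.S, a subunit of the COP9 signalosome, had -2.82, -0.27 and -3.16 in -Drago, against 1.34 and 0.73 in Cont (difference -3.11, SE 1.0). ube2j2.L, a ubiquitin-conjugating enzyme of the endoplasmic reticulum, had -0.01, -1.54 and -0.23 in -Drago, against 2.43 and 2.73 in Cont (difference -3.17, SE 0.93). Another was the deubiquitinase usp1.S, at -2.53 (SE 1.17), whose other copy usp1.L differed by 1.13 (SE 0.99).

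The cell cycle and mitosis list had 13 and 19 of 126 separated (25.4%), with a median of -0.08 and 2 past 5 fold, ttk.S and cdk1.S, both lower. cdk1.S, the kinase that drives entry into mitosis, had -0.92, -0.96 and -2.21 in -Drago, against 1.10 and 1.2 in Cont (difference -2.51, SE 0.80). The other cdk1 probe set, cdk1.L, had 0.11, -0.72 and -0.84 in -Drago, against 0.09 and 1.19 in Cont (difference -1.13, SE 0.81), with overlap between the groups. Cytosolic ribosomal proteins had 13 and 10 of 109 separated (21.1%, median 0.04) and 0 past 5 fold. Translation factors and tRNA synthetases had 17 and 13 of 123 (24.4%, median -0.000437), with the elongation factor eef1a1o.S higher by 2.63 (SE 0.97) and the initiation factor eif2s2.S lower, at -2.82 (SE 0.97, and -1.82 without Cont array 1). The other copy of each had the opposite sign, with eif2s2.L at 2.24 (SE 1.22) and eef1a1o.L at -0.45 (SE 0.68).

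RNA-binding and splicing factors, the largest list, had 28 and 22 of 234 separated (21.4%), with a median of 0.03, 3 higher past 5 fold and 4 lower. Besides lsm7.L and exosc1.L, lsm14a.S, a protein of mRNA processing bodies, differed by -2.67 (SE 0.97) and the helicase ddx24.L by -2.42 (SE 0.79). ptbp1.S, a splicing repressor, differed by 2.89 (SE 1.24), but both probe sets of ptbp1.L pointed the other way, at -2.0 (SE 1.09, no overlap) and -1.01 (SE 0.68). The 3 -Drago values of lsm14a.S were -1.64, -1.79 and -1.74, against 1.24 and 0.66 in Cont, and no other named gene past 5 fold was as tightly grouped in -Drago. In the mitochondrial respiratory chain list 9 and 8 of 83 were separated (20.5%, median -0.00151). Its ndufs5.L, a subunit of complex I, had 1.22, 1.37 and 0.51 in -Drago, against -1.56 and -1.67 in Cont (difference 2.65, SE 0.96). Cilia and centrosome genes had 9 and 7 of 87 (18.4%, median 0.08), with ttc30a.S higher and the ciliary motor subunit kif3a.L lower, at -2.42 (SE 0.73).

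The signalling lists also had members on both sides of Cont. Wnt signalling had 8 and 5 of 82 probe sets separated (15.9%, median -0.06), BMP and TGF-beta signalling 9 and 7 of 77 (20.8%, median -0.23), FGF signalling 3 and 4 of 25 (28%, median 0.06), and Notch and bHLH factors 1 and 2 of 56 (5.36%, median -0.22). In the Notch list the ligand dll1.L was higher, while hes1.L, a target of the pathway, had -0.47, -0.82 and -0.06 in -Drago, against 2.29 and 2.34 in Cont (difference -2.77, SE 1.08). The other hes1 probe set, hes1.S, differed by 0.40 (SE 1.10). szl.L, sizzled, a secreted inhibitor of the proteases that free BMP ligands, had 1.64, 0.58 and 1.94 in -Drago, against -1.45 and -0.55 in Cont (difference 2.39, SE 1.22), and its other copy szl.S differed by 1.62 (SE 1.05). The metamorphosis and thyroid hormone list had 3 and 3 of 30 (20%, median 0.16). In it ncor1.S, a corepressor of the thyroid hormone receptor, was at -2.40 (SE 0.92) by 1 probe set and at 1.05 (SE 1.04) by another. The immune list had 8 and 9 of 43 (39.5%, median 0.02), with the interferon regulatory factor irf1.L at -2.86 (SE 0.83) and the interleukin-17 receptor il17ra.S at -2.64 (SE 1.06). irf1.L had 1.92, -1.54 and -0.28 in -Drago, against 2.74 and 3.04 in Cont. Its difference from the same Cont arrays was -2.91 in Drago, -3.03 in -Salam and -2.52 in Salam, so it was not particular to -Drago.

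**Figure D4:**
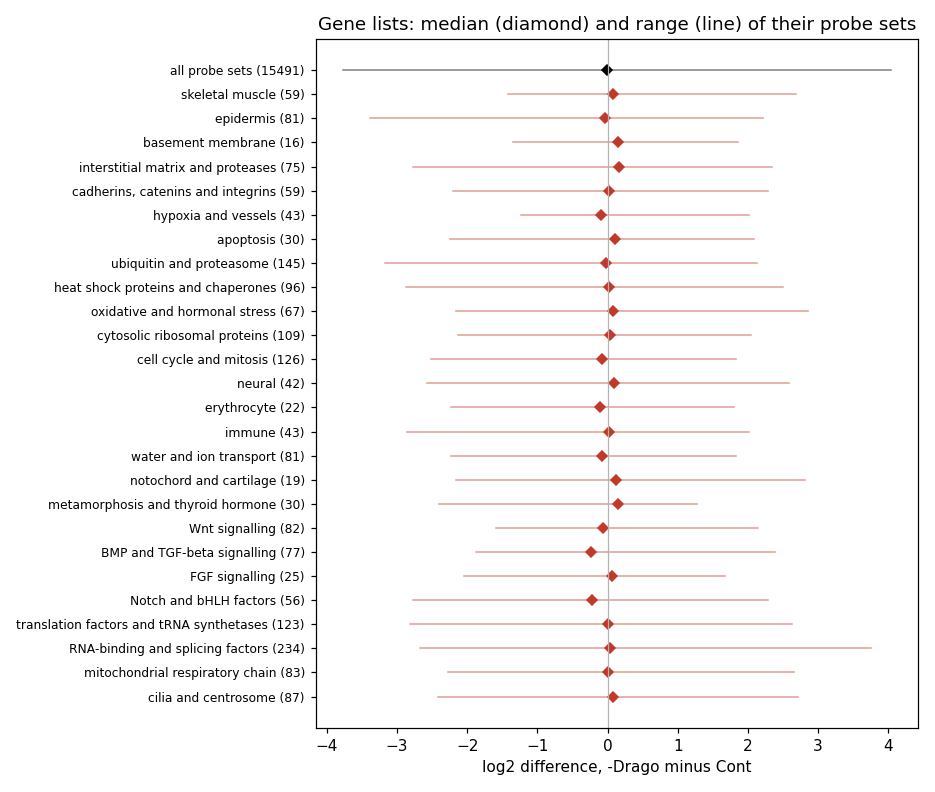
Diamonds mark the median and lines the range of the log2 differences of -Drago minus Cont for the probe sets of each of 26 gene lists, with the number of probe sets in brackets, below the same for all 15491 probe sets (black). List medians lie between -0.23 and 0.16 and every range spans 0.

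Because many genes have more than 1 probe set, the differences could be set against each other within a gene. A symbol was given to 2 or more probe sets in 1293 cases, which made 2712 pairs. The differences of a pair had the same sign in 1357 (50%), and their correlation over pairs was -0.0201. In 36 cases a probe set was past 5 fold, and in 4 of these another was past 2 fold in the same direction. Among the named probe sets past 5 fold, 29 had others of the same gene, which made 34 pairs, and the other one was past 2 fold in the same direction in 7 pairs and in the opposite direction in 7. Further probe sets of named genes were capn9.L (-1.11), glcci1.L (-0.99), cct7.L (-0.97), cops8.L (-0.68), irf1.S (-0.19), tmem184b.L (-0.69 and -0.24), tmem30a.L (0.29), pkp3.S (0.78), ube2j2.L (0.15 and -0.51) and fut11 (-0.30), with SE from 0.57 to 1.22. Between .L and .S copies, 1017 genes gave 1457 pairs, of which 737 (50.6%) had the same sign, with a correlation of 0.0201. These coefficients are descriptions without a test.

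The 10 probe sets chosen by the study's own test over the 5 groups held few large differences between -Drago and Cont. After rhno1.S, the largest was a probe set that has no symbol in the annotation used here. The paper lists that probe set as laminin subunit beta-1-like, and without a symbol it entered no gene list. It had 1.08, 0.59 and 0.40 in -Drago, against -1.12 and -1.72 in Cont (difference 2.11, SE 0.61). c19orf47.S had -1.38, -1.42 and -0.65 in -Drago, against 0.01 and 0.69 in Cont (difference -1.50, SE 0.55). Neither overlapped between the groups. bcorl1.L, a transcriptional corepressor, had 0.48, 0.47 and 0.56 in -Drago, against -0.29 and -0.16 in Cont (difference 0.73, SE 0.50), and its -Drago values were the highest of the 14 arrays. grem1.L, the BMP antagonist gremlin, had -0.48, -0.47 and -0.32 in -Drago, against -0.29 and -0.20 in Cont (difference -0.18, SE 0.53), where the 3 -Drago values were the lowest of the 14 arrays and the difference was smaller than its SE. The other 5 were a probe set of both copies of dpm1, a mannosyltransferase subunit (-0.90), elavl1.S, an RNA-binding protein that stabilizes mRNA (0.47), mettl7a.L (-0.38), pdap1.L (-0.23) and dlgap5.S of the mitotic spindle (-0.10), with SE from 0.54 to 0.58. A second dlgap5.S probe set had -0.26, 0.26 and -1.42 in -Drago, against 1.04 and 2.55 in Cont (difference -2.27, SE 0.85), with no overlap and an adjusted p = 0.959 by limma. Of other probe sets, mettl7a.L had one at 0.95 (SE 0.95) and pdap1.S was at 0.15 (SE 0.60).

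Some probe sets varied less than others within groups. Ranked by their spread within the groups of the other 9 arrays, which enters the SE of this comparison but not the difference itself, the steadiest 10% held 1549 probe sets, and 55 of the 109 cytosolic ribosomal protein probe sets (50.5%) were among them. So were 15 of 59 skeletal muscle (25.4%), 25 of 123 translation (20.3%) and 16 of 83 respiratory chain probe sets (19.3%). In this 10% the median size of the difference between -Drago and Cont was 0.31, against 0.56 over all probe sets, and 9.94% differed by more than 2 fold, against 26.2%. The spread within the compared groups was smaller too. Its median standard deviation was 0.38 in -Drago and 0.34 in Cont, against 0.75 and 0.59 over all probe sets. Smaller differences thus came together with a smaller spread. In all, 1168 of the 1549 lay within 1.5 fold of Cont and 3 were past 5 fold, against 7998 and 260 of all 15491 probe sets.

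The steadiest ribosomal protein genes illustrate this. rpl8.S had 0.23, 0.03 and -0.02 in -Drago, against -0.07 and 0.08 in Cont (difference 0.07, SE 0.49). The muscle genes tpm1.L, a tropomyosin, and tnnt3.S, the fast skeletal troponin T, were as close. tnnt3.S had 0.20, 0.06 and 0.20 in -Drago, against -0.01 and 0.28 in Cont (difference 0.02, SE 0.51), and tpm1.L differed by -0.09 (SE 0.51). For cox4i1.S, a subunit of cytochrome c oxidase, the values were 0.27, -0.12 and 0.21 in -Drago, against 0.15 and -0.11 in Cont (difference 0.10, SE 0.51). In each of these the groups overlapped. limma's SE draws on all probe sets and was larger than the spread of these arrays. Of the 55 ribosomal protein probe sets 51 lay within 1.5 fold and 2 were lower by more than 2 fold, one of them rps20.L with -1.19, -0.89 and -2.91 in -Drago, against 0.93 and -0.74 in Cont (difference -1.76, SE 0.69). Of the 15 muscle probe sets 14 lay within 1.5 fold.

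**Figure D5:**
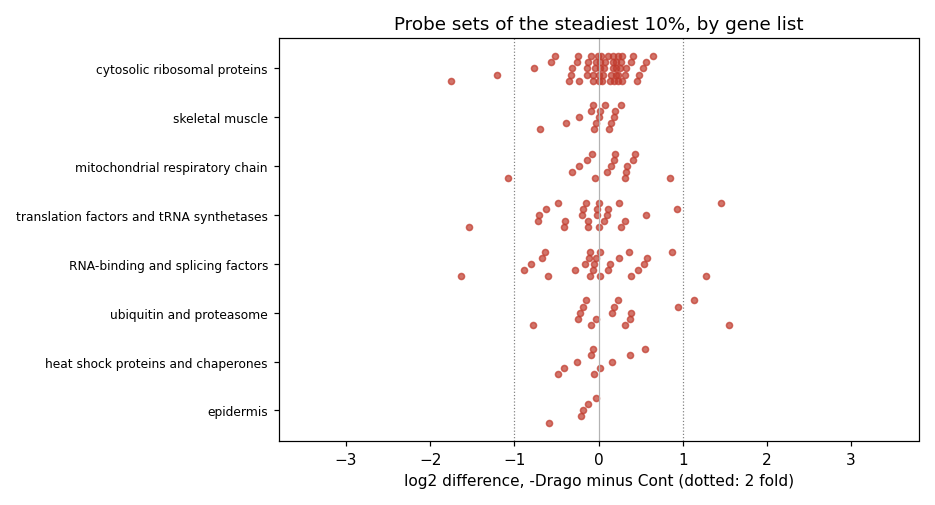
Each point is the log2 difference of -Drago minus Cont of 1 probe set in the steadiest 10%, for 8 gene lists, spread vertically only for legibility, with dotted lines at 2 fold. Of the 55 ribosomal protein points 51 lie within 1.5 fold of Cont, and of the 15 muscle points 14.

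Markers of the cell types a tail can hold were checked in the same way, since the deposited values do not show which markers were expressed. Of 39 markers for 7 cell types, 30 were found, with 49 probe sets. limma called 0, 29 lay within 2 fold of Cont, 10 were higher and 10 lower by more, and 13 had no overlap between the groups. Those past 2 fold were 40.8% of the marker probe sets, against 26.2% of all probe sets, and those without overlap 26.5%, against 20.5%. Muscle markers had a median of 0.10, with mylpf.L at 0.00 and acta1.S, skeletal muscle actin, at 1.96 (SE 0.65). acta1.S had 0.55, 0.57 and 0.49 in -Drago, against -0.77 and -2.08 in Cont. The 3 erythrocyte markers were all lower: slc4a1.L, the anion exchanger of red cells, at -2.23 (SE 1.34), hbg1.L at -1.48 (SE 1.13) and hba1.S at -0.45 (SE 0.60). hbg1.L overlapped between the groups, with -1.35 in Cont array 1 and 2.22 in Cont array 2. The wider erythrocyte list of 22 probe sets had a median of -0.11, with differences from -2.23 to 1.8. Endothelial markers were 2, tek.S at 2.02 (SE 0.77) and pecam1.L at -0.92 (SE 0.69). Epidermal (16 probe sets, median -0.13), white blood cell (7, median -0.22) and neural markers (9, median 0.26) lay on both sides of Cont, and the 4 of notochord lay between 0.01 and 0.72. Their part in the gene results was not tested.

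Of the 5 poly-A control transcripts with probe sets on the array, 4 were highest in Cont array 1. The methods do not say which of them were added to the samples. Values of these transcripts are means over their probe sets, 6 for Dap. Dap, a bacterial transcript that can be added before labelling, had -1.79, -1.06 and -0.61 in -Drago, against 3.1 and -0.96 in Cont arrays 1 and 2. Phe, Thr and Lys were highest in Cont array 1 in the same way, at 1.69, 1.5 and 0.61, but Trp was highest in -Drago array 2, at 0.79, with 0.41 in Cont array 1. The mean of the 18 hybridization control probe sets lay between -0.27 and 0.15 on all 5 arrays. The array also has control probe sets for transcript ends. The 5' one of beta-actin had 0.86, 1.46 and -0.41 in -Drago, against 1.54 and 1.79 in Cont, without overlap. Its 3' one had 2.31, 1.09 and -1.47, against -1.19 and -0.32. There the groups overlapped, as at both ends of Gapd and of the muscle actins. RNA quality was not tested from them. With each of the 5 arrays left out in turn, the wdhd1.L difference ranged from -4.04 to -3.18. That of hspa8.L ranged from 1.77 to 3.22 and that of krt12.2.L from -3.95 to -2.96. The ranges cover all 5 arrays and not Cont array 1 alone. These genes were picked by their small p on the same arrays. The ranges therefore cannot show whether the deviation of Cont array 1 in the control transcripts reached them.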

How the data were processed

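Total RNA of tail tissue was labelled and hybridized to Affymetrix Xenopus laevis arrays. According to the methods, the authors read scans into GCOS 1.2 and computed MAS5 signals in GeneSpring 11.5, where the median over samples served as the baseline of a probe set. The values analysed are log2 values as deposited, with each probe set at a median of 0 over the 14 arrays, so no filter on low signal and no pseudocount could be applied. Sequences and genome positions were not used here. Gene symbols came from the platform annotation, which gives 1 symbol for 9304 of the 15491 probe sets, several for 195 and none for 5992.

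All 14 arrays were fitted with limma 3.58.1 under R 4.3.3, with 1 mean per group, 9 residual and 5.53 prior degrees of freedom, and Benjamini-Hochberg adjustment over the 15491 probe sets, and the pipeline was tested on simulated data. The number of arrays limits the precision. Named genes are the 15 a direction with 1 symbol and the smallest p, the 10 probe sets of the study's own test, those with 1 symbol among the 10 largest differences a direction, and up to 4 list members a direction over 5 fold without overlap. For steady genes, those with the smallest spread in the other 9 arrays are named, except cox4i1.S, since cox17.L and atp5mc3.S of its list were steadier. rps20.L, the cell type markers given singly and the other probe sets of named genes were picked with their values in view. The members and lists were chosen with earlier results of these data known, and names that fell into a list by spelling alone were taken out after values had been seen. Alternatives tried were only the 5 arrays, an ordinary 2-group test, the replicate number as a block, a robust prior, quantile normalization, centring each array, ratios of linear means, control transcripts included and each array left out in turn.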

Additional observations from a re-analysis of the deposited data

Results flagged for a closer look

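In 4 of the 10 probe sets of the study's selection test, all -Drago arrays lay on one side of Cont and all arrays of another predator group on the other. Over all probe sets, 20.5% had the -Drago arrays on one side of Cont. That is a wider event, and the share with another group on the other side was not counted, so the 4 of 10 cannot be set against a background. c19orf47.S was lower in -Drago than in -Salam by a difference of -3.34 on the log2 scale, with means of -1.15 in -Drago and 2.19 in -Salam. limma's adjusted p for that difference was 0.106 over all probe sets. elavl1.S was higher in -Drago than in -Salam by 2.20 (means 0.30 in -Drago and -1.90 in -Salam, adjusted p = 0.605 by limma). The paper also measured this gene by qPCR. There -Drago was close to the control level, and the gap between -Drago and -Salam was much smaller than on the array. The paper's own test found no significant difference between qPCR and array ratios, but it left out the Drago ratio for want of observations. With so few observations, such a result does not show that qPCR and array gave the same values. For grem1.L the difference of -Drago minus Drago was -2.36 (means -0.42 in -Drago and 1.94 in Drago, adjusted p = 0.517 by limma), and that of -Drago minus Salam was -0.73 (mean 0.31 in Salam, adjusted p = 0.999 by limma). bcorl1.L was higher in -Drago than in Salam by 1.14 (means 0.50 in -Drago and -0.64 in Salam, adjusted p = 0.973 by limma). None of these differences passed the test, and the 10 probe sets had been selected for differing between the 5 groups.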

How the results depend on the processing

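The count of called probe sets was 0 in all 12 alternatives. The smallest adjusted p ranged from 0.213 by the ordinary 2-group test to 1 without -Drago array 2, and 723 to 853 probe sets had an unadjusted p under 0.05, 847 of them by the ordinary 2-group test. A prior variance taken from the other 3 groups, added after the data were seen, gave 820. The count over 5 fold was 291 after quantile normalization, 316 with ratios of linear means and 268 with control transcripts included. With 1 array left out it ran from 436 to 950, and the count of probe sets without overlap, a check added after the data were seen, from 5117 to 8076, both by construction higher with fewer arrays. Of the named genes, pdap1.L (-0.57 to 0.09) and dlgap5.S (-0.42 to 0.22) changed sign with 1 array left out, within 1 SE. Of the 49 named probe sets past 5 fold, 5 moved by over 1.5 times with 1 array left out: pacsin3.S, ncam1.S, mmp3.L and eif2s2.S with a Cont array and nr3c1.S with a -Drago array. The 49 were named for their p, size or separation in the same arrays, so this count describes that choice and is no support for it. Same-numbered arrays of different groups did not deviate together, with correlations from -0.0194 to 0.0161 over 26 pairs. Correlations within -Drago and within Cont were also near 0, so whether the numbers pair the samples is not settled. With the replicate block 767 probe sets had an unadjusted p under 0.05 and 0 were called. The signal level was removed from the values, so dim probe sets could not be told from bright ones.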
